A study of Homo sapiens with 6 samples.

Results

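The myosins of human breast cancer cells were described in RNA sequencing of MDA-MB-231, a triple-negative line, and of 231-BR, the brain-seeking variant derived from it. The rows of the table whose symbol is MYO, MYH or MYL followed by a number and at most 1 letter were taken, which gave 40 of 17039 genes. The symbol alone decided membership, but the myosins were picked for description with earlier results known, and MYO1D is among the genes the study had selected for their rise in these same libraries. Poly(A) RNA of 3 libraries of each line was measured and given as FPKM, a fragment count scaled to transcript length and to the mapped fragments of the library, so that levels can be set side by side between genes of different length. Neither line carried an added treatment, but the medium of 231-BR cells held the antibiotic G418 and that of MDA-MB-231 cells did not, so that line and medium cannot be told apart. Below, MDA-MB-231 cells are also called parental. Values after ± are SDs over the 3 libraries of a line. The MDA-MB-231 cells were bought from a repository and the 231-BR cells came from another laboratory. One label field numbers the line names upward from library to library, and the libraries were grouped by their titles, which name 231BR and MDA_MB_231 only.

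Myosins are the motors of actin filaments. A heavy chain carries the motor domain and a neck that binds light chains or calmodulin. Class II myosins assemble into bipolar filaments that contract, as sarcomeres in muscle and as stress fibres and the cytokinetic ring in other cells, where phosphorylation of the regulatory light chain switches them on. The unconventional classes do not form such filaments. Class I links membranes to actin, classes V and VI carry vesicles in opposite directions, and class X builds filopodia.

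The libraries themselves differed little within a line. The lowest correlation of log2 values across genes was 0.997 within a line and the highest between lines was 0.902, and 10785 to 11178 genes per library reached 1 FPKM. Among markers of the lines, VIM was at 2306 to 2553 FPKM in the means and CDH1 at no more than 0.03 FPKM in any library. ERBB2 and EPCAM were detected in both lines and were higher in 231-BR cells without overlap. ERBB2 had 9.88 ± 0.32 against 4.95 ± 0.18 FPKM, and EPCAM 8.70 ± 0.53 against 5.06 ± 0.55 FPKM. Of the 4 markers listed as high in such a line, 1 (VIM) was higher and 3 were lower in 231-BR cells by the adjusted p of the fit described below. By that rule 77.3% of all genes tested were called. Without read counts the depth of the libraries is unknown. Bulk FPKM cannot tell fewer expressing cells from less RNA per cell.

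MYO1D, a short-tailed class I motor of membranes, was among the genes that the study took on to knockdown, and its reagents show which stretch of the transcript was measured and targeted. The primers and shRNA target sites below were read from the study's lists and matched to GENCODE release 29 on GRCh38, where MYO1D lies on the minus strand of chromosome 17 from 32492522 to 32877177.

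MYO1D forward primer: cctcacctttttgctattgcgg

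MYO1D reverse primer: actggcttccgttttaccagc

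MYO1D shRNA 1 target: gaacccttacaagttgttgaa

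MYO1D shRNA 2 target: aggttgaaagagtgaagaata

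MYO1D shRNA 3 target: tggcttcaaacctgaggagat

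All 5 lie in the coding part of the 22-exon transcript MYO1D-201 and are present in each of the 4 protein-coding transcripts of the gene. The forward primer is in exon 2 (chr17:32780633-32780654) and the reverse primer in exon 3 (chr17:32778542-32778562). The shRNA 1 site is in exon 2 (chr17:32780713-32780733) and the shRNA 3 site in exon 7 (chr17:32767676-32767696), and the shRNA 2 site crosses the junction of exons 3 and 4, so that its ends, at 32776019 and 32778489, lie on either side of an intron. No other gene of the release matched any of the 5 exactly, and the closest other myosin transcript differed from each by 4 to 6 bases. The effect of the shRNAs was not analysed here.

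In 231-BR cells the major non-muscle myosin II chains made up less, and unconventional motors more, of the myosin transcripts. MYO1D, MYO5C and MYO5B rose most, MYH9 and the light chains MYL12A and MYL12B fell, and the paralogs MYH10 and MYL9 rose. Of the 40 members, 24 had a mean of 1 FPKM or more in either line and 22 in both. The fit of log2(FPKM + 0.1) with limma covered the 27 members with a mean of at least 0.1 FPKM, and 231-BR cells had more transcript of 14 of them and less of 9 with the adjusted p below 0.05. By that rule 77.3% of all genes tested were called, 44.4% as higher and 32.9% as lower, so that a call at this threshold is the usual case in these libraries. No overlap between the lines was seen for 24 of the 27 members and for 78.4% of all genes tested. When the log2 fold change also had to exceed 1 in either direction, 6 of the 27 remained, or 22.2%, against 15.2% of all genes tested. With a pseudocount of 1 FPKM this count was 4, since MYO1F and MYO7B no longer passed. The full criteria of the study, which also ask for 1 FPKM and were applied here to the means of both lines, were met by MYO1D as a higher gene (4.68% of all genes tested) and by MYH15 and MYO7B as lower genes (1.77%). Over all genes these criteria gave 630 higher and 238 lower genes, but 523 and 302 after median-of-ratios scaling and 439 and 384 after quantile normalization. The median log2 fold change was 0.29 over the 27 members and 0.08 over all genes tested. The p-values measure the spread between these libraries only, since nothing says that they came from separate cultures.

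**Figure D1:**
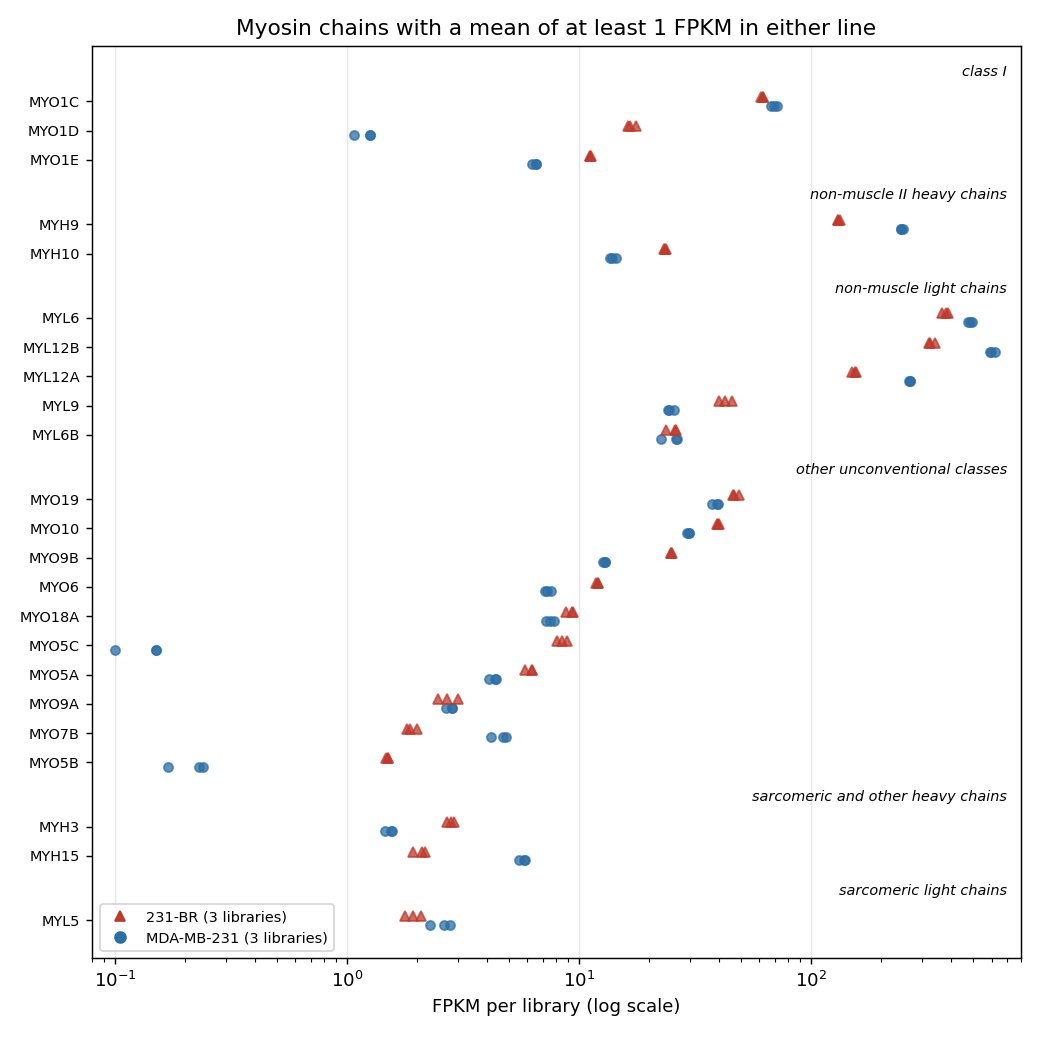
FPKM of 23 of the 24 myosin chains whose mean was 1 or more in either line, on a log axis, with 1 symbol per library (triangles, 231-BR; circles, MDA-MB-231). MYO1D, MYO5B and MYO5C lie far to the right in 231-BR cells, MYH9, MYL12A and MYL12B lie to the left, and the symbols of MYL6B and MYO9A overlap.

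Among class I, MYO1D changed from a minor to a prominent member. Its level was 17.7, 16.7 and 16.2 FPKM in the 231-BR libraries and 1.26, 1.26 and 1.07 FPKM in the MDA-MB-231 libraries. The lowest 231-BR library thus stood far above the highest MDA-MB-231 library, a log2 fold change of 3.71 (standard error, SE, 0.073 and adjusted p = 6.2e-11). MYO1E, a long-tailed member found at sites of endocytosis and adhesion, rose less. It had 11.2, 11.1 and 11.2 FPKM in 231-BR cells, against 6.51, 6.56 and 6.29 FPKM in parental cells, with no overlap and a log2 fold change of 0.78 (SE 0.041 and adjusted p = 5.4e-08).

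MYO1C, the most abundant class I member in both lines, was modestly lower in 231-BR cells. This motor, known for bringing glucose transporter vesicles to the membrane, had 62.4, 62.4 and 60.7 FPKM against 69.3, 71.4 and 67.2 FPKM. The groups did not overlap, and the log2 fold change was -0.16 (SE 0.028 and adjusted p = 4.0e-04). MYO1F, a member of blood cells, passed the fold condition at a trace level, though not with a pseudocount of 1 FPKM, with 0.32, 0.37 and 0.36 FPKM against 0.07, 0.13 and 0.06 FPKM, a log2 fold change of 1.29 (SE 0.19 and adjusted p = 1.4e-04). It reached the mean of 0.1 FPKM needed for the test through its 231-BR libraries. MYO1H had between 0.13 and 0.20 FPKM, with overlapping groups, and MYO1A no more than 0.01 FPKM in any library.

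Because a share within a library does not move when the whole library is rescaled, the composition of each class was compared as well. MYO1D made up 14.5% ± 0.42 of the summed class I FPKM in 231-BR cells and 1.09% ± 0.075 in parental cells. The difference of 13.4 percentage points gave p = 0.1 in an exact two-sided permutation test, which is the smallest p that 3 libraries against 3 allow. The class I sum without MYO1D was lower in 231-BR cells, at 97.9 to 100.2 FPKM against 105.4 to 110.5 FPKM, whereas with MYO1D it was higher, at 114 to 118 FPKM against 106 to 112 FPKM. These sums, and the ratios of sums given further on, were chosen after the values had been seen.

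Of the 5 groups whose composition was compared, class V changed most. Its members carry melanosomes, recycling endosomes and secretory granules along actin, MYO5A mainly in neurons and pigment cells, and MYO5B and MYO5C in epithelial cells. MYO5C had 8.92, 8.03 and 8.46 FPKM in the 231-BR libraries and 0.15, 0.10 and 0.15 FPKM in the MDA-MB-231 libraries. It was thus near the lower limit of the table in one line and clearly expressed in the other, with a log2 fold change of 5.21 (SE 0.11 and adjusted p = 1.1e-10). A value this close to 0 makes the size depend on the pseudocount, and with 1 or 0.01 FPKM in place of 0.1 it was 3.06 or 5.91. MYO5B had 1.47, 1.5 and 1.5 FPKM against 0.24, 0.17 and 0.23 FPKM, a log2 fold change of 2.35 (SE 0.13 and adjusted p = 7.8e-08), with 1.04 and 2.76 for the same changes of the pseudocount. Some of the MYO5B signal could belong elsewhere, since 5.14% of the windows of 100 bases in its transcript, the length of a read, recur exactly in other annotated genes, 2 of them MYO5B pseudogenes. MYO5A rose the least, from 4.35, 4.39 and 4.10 FPKM to 6.25, 6.26 and 5.83 FPKM, a log2 fold change of 0.50 (SE 0.056 and adjusted p = 1.6e-05).

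The class V sum was 15.8 to 16.6 FPKM in 231-BR cells and 4.48 to 4.74 FPKM in parental cells. Of it, MYO5A held 92.5% ± 1.48 in MDA-MB-231 cells but 38.0% ± 1.42 in 231-BR cells, where MYO5C held 52.7% ± 1.58. The share of MYO5B was 9.28% ± 0.38 in 231-BR cells and 4.62% ± 0.84 in parental cells. None of these shares overlapped between the lines (exact two-sided permutation p = 0.1 for each, the smallest possible).

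**Figure D2:**
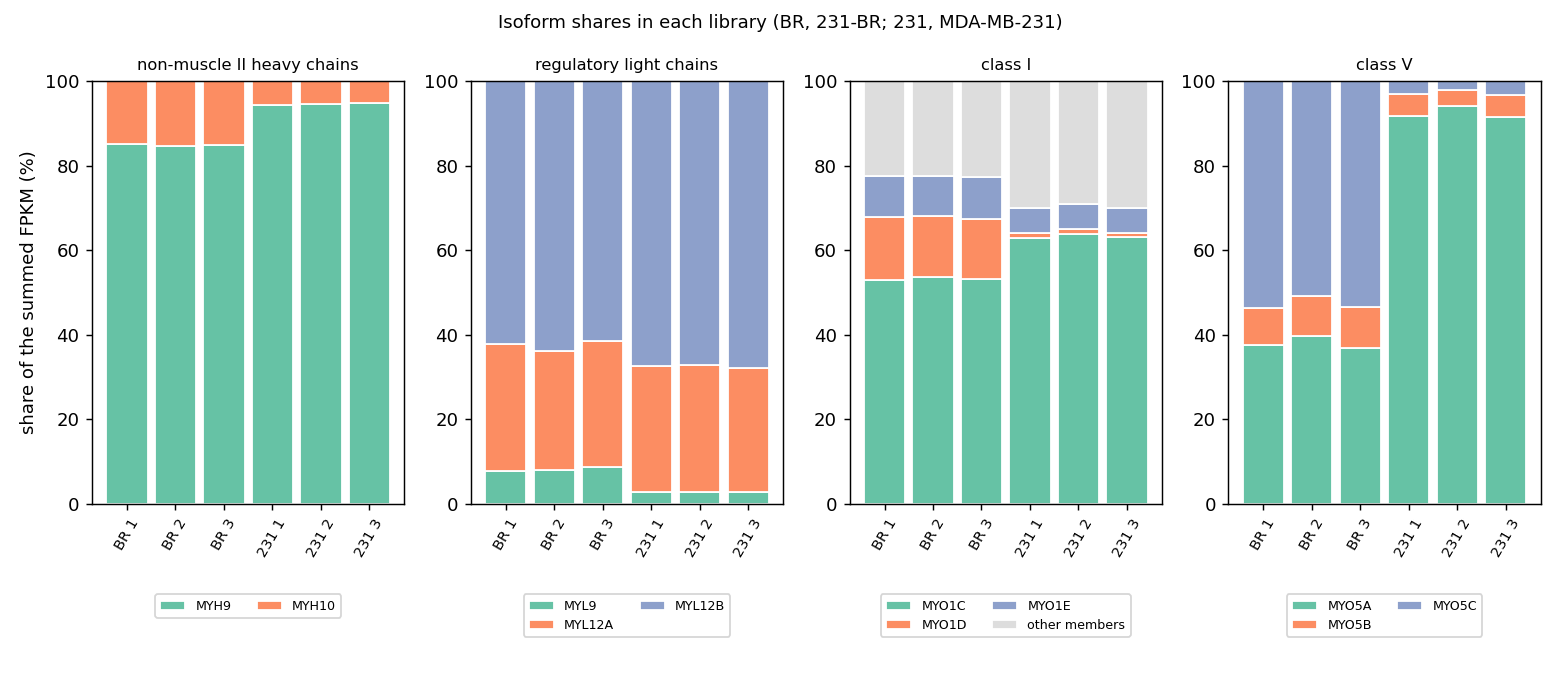
Share of each member in the summed FPKM of its group, in percent, with 1 stacked bar per library, the 3 bars at left from 231-BR cells and the 3 at right from MDA-MB-231 cells. MYH10, MYL9, MYO1D and MYO5C take larger shares in every 231-BR library, and the grey part of class I is the sum of the members not named.

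Annotated genes of the opposite strand overlap exons of 13 of the 24 members at 1 FPKM, namely MYO1D, MYO1E, MYH10, MYL6, MYL6B, MYL12A, MYL12B, MYO5B, MYO5C, MYO9A, MYO9B, MYO19 and MYL5. Whether fragments were counted by strand is not given in the sources used here, so the values of these 13 may hold some signal of the opposite strand.

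The genes of class V also show how locally the change was placed. MYO5C and MYO5A are next to each other on chromosome 15 (MYO5C from 52192322 to 52295798 and MYO5A from 52307283 to 52529050, both on the minus strand of GRCh38). The 40 expressed genes around MYO5C, 20 on either side in the RefSeq order, had a median log2 fold change of -0.09, and all 40 were below MYO5C. The same held for MYO1D on chromosome 17, whose 40 neighbours had a median of 0.32, all of them below it. Both genes are set out here for the size of their rise, so that a place above their neighbours was largely given. MYO5A, with a log2 fold change of 0.50, stood above 37 of its 40 neighbours. MYO9B was different. It lies on chromosome 19 among neighbours with a median of 1.03, and 26 of the 40 had larger log2 fold changes than its own 0.95. Of the 23 members placed it alone had neighbours that reached a median of 0.58, a level found around 5.0% of the 11090 genes placed. These medians are descriptions of neighbouring genes and were not tested.

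**Figure D3:**
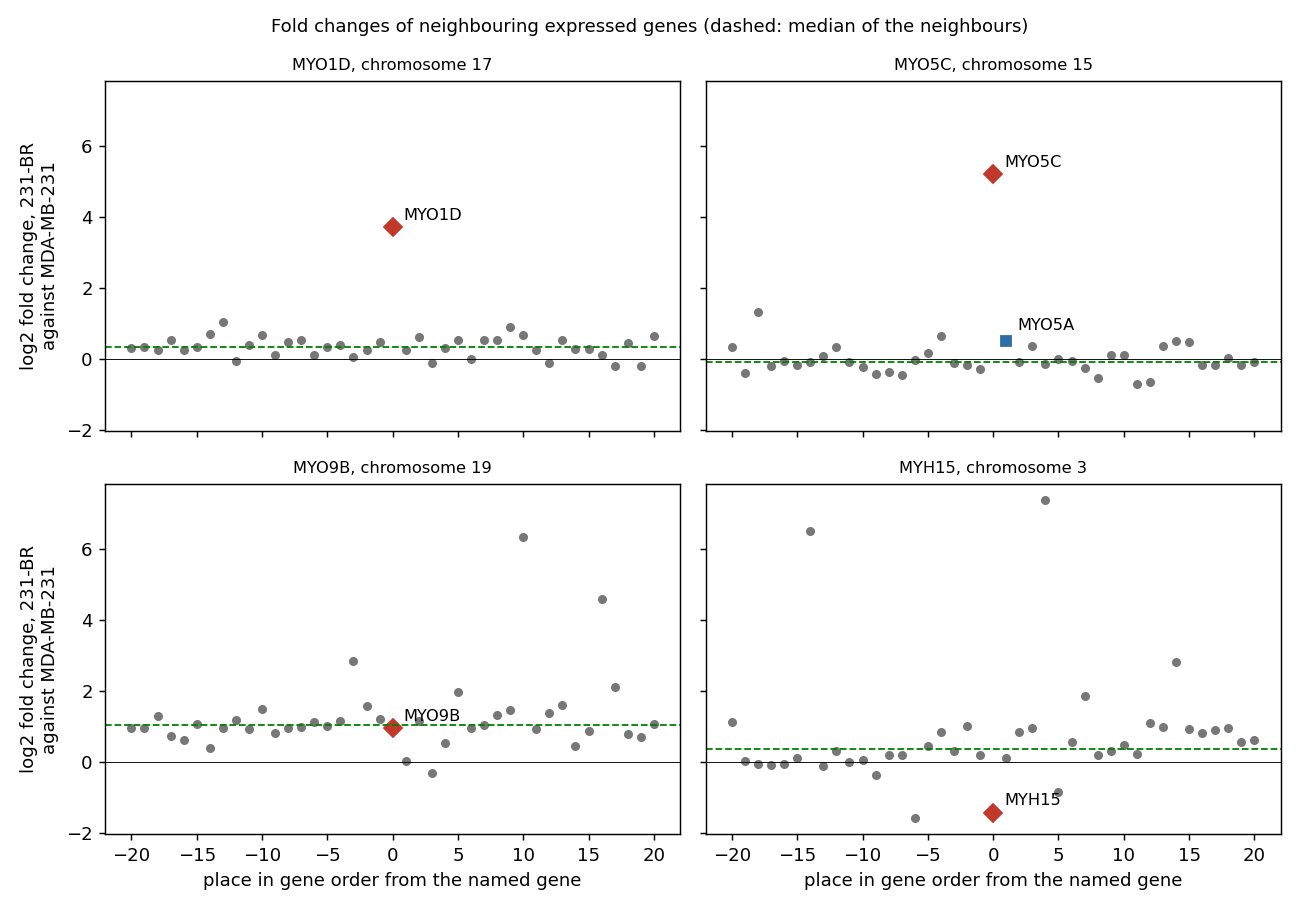
Log2 fold change of 231-BR against MDA-MB-231 for a myosin gene (red diamond; MYO5A as a blue square) and the 20 expressed genes on either side (grey), by place in the gene order, with the median of the neighbours as a dashed line. MYO1D and MYO5C stand above all 40 neighbours, MYO9B lies within a raised stretch with a median of 1.03, and MYH15 lies below 39 of its 40.

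The sequences before the starts of the raised members MYO1D, MYO5C and MYO5B are shown because these genes rose most of the members at 1 FPKM. They come from RefSeq (GRCh38.p14, minus strand) and run 5′ to 3′ up to the start, or, for MYO1D, up to the 5′ boundary of the GENCODE gene. The GC box GGGCGG and the CCAAT box, on either strand, are in capitals.

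MYO1D, chr17:32877178-32877374: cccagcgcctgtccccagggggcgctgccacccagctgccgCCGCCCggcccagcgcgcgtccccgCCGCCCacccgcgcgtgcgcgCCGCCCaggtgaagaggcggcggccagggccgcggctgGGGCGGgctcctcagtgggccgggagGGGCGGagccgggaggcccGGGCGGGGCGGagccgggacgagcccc

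MYO5C, chr15:52295805-52296054: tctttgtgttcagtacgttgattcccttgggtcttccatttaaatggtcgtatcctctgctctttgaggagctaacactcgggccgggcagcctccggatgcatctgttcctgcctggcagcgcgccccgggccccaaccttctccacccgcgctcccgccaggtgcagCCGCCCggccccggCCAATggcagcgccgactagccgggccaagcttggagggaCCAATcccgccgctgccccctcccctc

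MYO5B, chr18:50195148-50195397: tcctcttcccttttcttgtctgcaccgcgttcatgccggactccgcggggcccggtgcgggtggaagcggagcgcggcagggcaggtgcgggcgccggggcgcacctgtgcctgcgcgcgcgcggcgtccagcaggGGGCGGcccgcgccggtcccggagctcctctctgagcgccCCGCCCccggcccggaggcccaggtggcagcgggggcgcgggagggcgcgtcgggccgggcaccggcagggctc

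Over the 250 bases before the RefSeq start, MYO1D had 35 CpG dinucleotides and 7 GC boxes, MYO5B had 37 and 2, and MYO5C had 19 and 1 with 2 CCAAT boxes. A window of this kind held a median of 11 CpG, a GC box in 42.6% and a CCAAT box in 32.0% of the 35116 starts of the table. CpG numbers did not sort the members by direction. Of those that fell, MYH15 had 1 and MYO7B 5 and 4 before its listed starts, but MYH9 had 21 and MYL12B had 40, 23 and 24. As many or more CpG stood before members that rose less, such as MYO6 with 41, while MYO5A had 33.

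Non-muscle myosin II was the main contractile myosin of both lines. Its heavy and light chains together made up 79.6% ± 0.52 of all myosin FPKM in 231-BR cells and 88.0% ± 0.31 in parental cells. Most of this was light chain, at 931 ± 22.2 FPKM in 231-BR cells and 1405 ± 26.9 FPKM in parental cells. The heavy chains MYH9 and MYH10 summed to 155 ± 1.35 and 260 ± 3.37 FPKM. All unconventional heavy chains summed to 271 ± 4.39 FPKM in 231-BR cells and 218 ± 2.90 FPKM in parental cells. MYH9, the heavy chain of myosin IIA that drives traction and retraction of the cell rear, had 134, 131 and 131 FPKM in the 231-BR libraries and 244, 243 and 250.01 FPKM in the MDA-MB-231 libraries. Every 231-BR library was far below every MDA-MB-231 library, with a log2 fold change of -0.90 (SE 0.022 and adjusted p = 2.4e-10), short of the fold condition of 1. MYH10, the heavy chain of myosin IIB, which stays bound to actin for longer, went the other way. It had 23.4, 23.6 and 23.2 FPKM against 14.5, 13.9 and 13.6 FPKM, a log2 fold change of 0.74 (SE 0.035 and adjusted p = 2.7e-08). The share of MYH10 in the sum of both rose from 5.39% ± 0.23 to 15.1% ± 0.18, and the level of MYH9 was 17.6 ± 0.80 times that of MYH10 in MDA-MB-231 cells and 5.64 ± 0.077 times in 231-BR cells. MYH14, the heavy chain of myosin IIC, was not analysed here.

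The regulatory light chains followed the same pattern. MYL12B had 322, 342 and 325 FPKM in 231-BR cells, against 595, 594 and 620.3 FPKM in parental cells, a log2 fold change of -0.87 (SE 0.029 and adjusted p = 2.1e-09). MYL12A, its near copy in the next place on chromosome 18, had 155, 150.5 and 157 FPKM against 264, 267 and 268 FPKM, a log2 fold change of -0.79 (SE 0.023 and adjusted p = 8.2e-10). Both genes fell without overlap, and the level of MYL12B was 2.14 ± 0.12 times that of MYL12A in 231-BR cells and 2.26 ± 0.044 times in parental cells. None of the 1150 windows of 100 bases in the longest coding transcript of MYL12B recurred in MYL12A or any other gene, so that reads of this length without errors can be told apart between both genes. The genes around MYL12A also had a negative median, -0.47 over 30 neighbours.

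MYL9, the regulatory light chain of smooth muscle that non-muscle cells also use, rose. Its level was 40.3, 42.5 and 45.7 FPKM in the 231-BR libraries and 24.1, 24.4 and 25.6 FPKM in the MDA-MB-231 libraries, again with no overlap. The log2 fold change was 0.79 (SE 0.045 and adjusted p = 1.0e-07), and its share of the 3 regulatory light chains was 8.13% ± 0.47 against 2.76% ± 0.036. The share of MYL12B was 62.6% ± 1.21 against 67.4% ± 0.39, and that of MYL12A overlapped between the lines, at 29.3% ± 1.02 and 29.8% ± 0.41 (exact permutation p = 0.6). The smooth muscle heavy chain MYH11 was at no more than 0.02 FPKM in any library. The 6 smooth muscle markers listed did not move together. SMTN fell (39.5 ± 0.86 against 54.4 ± 1.45 FPKM, log2 fold change -0.46, adjusted p = 2.4e-07), whereas TAGLN rose (2.96 ± 0.075 against 2.43 ± 0.29 FPKM, 0.28, adjusted p = 0.016). CNN1 was higher at a trace level (0.19 ± 0.053 against 0.01 ± 0.017 FPKM, 1.39, adjusted p = 2.8e-04). It reached the mean of 0.1 FPKM needed for the test only through its 231-BR libraries, so that this p-value carries little weight. LMOD1, SYNPO2 and MYOCD did not exceed 0.06 FPKM in any library. The 6 summed to 42.0 to 43.6 FPKM in the 231-BR libraries and 56.0 to 58.4 FPKM in the parental ones, and most of each sum was SMTN. None of the 6 was at 0 in every library, and their part in the rise of MYL9 was not tested.

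The essential light chains, which stiffen the neck of the heavy chain, changed less. MYL6 had 366, 390.1 and 381 FPKM in 231-BR cells, against 477, 485 and 495 FPKM in parental cells, with no overlap and a log2 fold change of -0.36 (SE 0.027 and adjusted p = 8.7e-07). MYL6B had 23.7, 26.3 and 26.0 FPKM against 22.7, 26.1 and 26.4 FPKM, and its log2 fold change of 0.02 (SE 0.061 and adjusted p = 0.80) was not distinguishable from 0 and turned negative under both other scalings. The genes lie side by side on chromosome 12 and their annotated exons overlap on the same strand, so that some reads near the border may have been counted for either.

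Set against the heavy chains MYH9 and MYH10, the ratio of the regulatory light chains overlapped between the lines and that of the essential light chains did not. The summed regulatory light chains were 3.30 to 3.46 times the summed heavy chains MYH9 and MYH10 in 231-BR cells and 3.42 to 3.47 times in parental cells, overlapping ranges (exact permutation p = 0.4). So few libraries cannot show that this ratio was equal, and its sum joins the falling MYL12A and MYL12B with the rising MYL9. The summed essential light chains were 2.48 to 2.69 times the heavy chains in 231-BR cells and 1.93 to 1.99 times in parental cells (exact permutation p = 0.1, the smallest possible). These are ratios of transcript levels, not of protein.

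**Figure D4:**
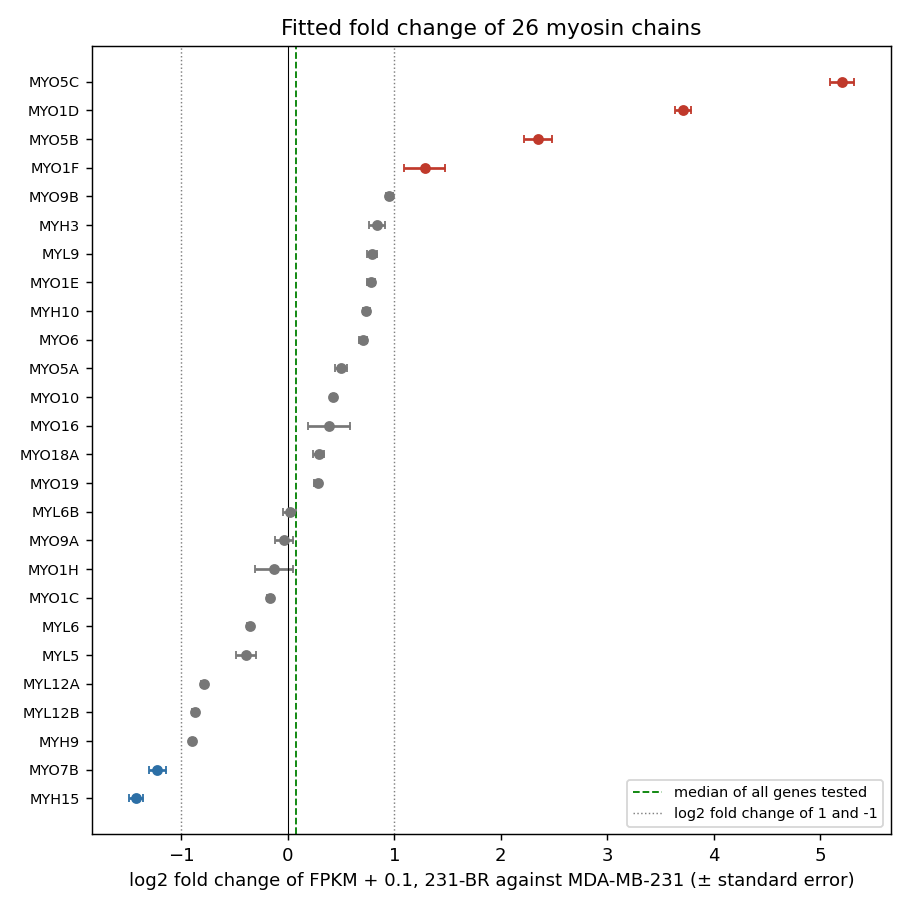
Fitted log2 fold change of 231-BR against MDA-MB-231 with its standard error for 26 of the 27 myosin chains tested, in order of size (red, higher and blue, lower by over 1; green dashed line, the median of all genes tested). MYO5C, MYO1D, MYO5B and MYO1F lie above 1, MYH15 and MYO7B lie below -1, and the other 20 lie between -0.90 and 0.95.

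Of the other unconventional heavy chains, most were moderately higher in 231-BR cells. MYO9B, a class IX myosin, rose by nearly 1 on the log2 scale, from 13.0, 12.9 and 12.7 FPKM to 25.2, 24.99 and 24.9 FPKM, a log2 fold change of 0.95 (SE 0.030 and adjusted p = 1.7e-09). Its relative MYO9A did not follow, with 2.47 to 3.02 FPKM in 231-BR cells and 2.68 to 2.85 FPKM in parental cells (log2 fold change -0.04, adjusted p = 0.69). MYO6, which moves toward the minus end of actin and serves endocytosis, had 12.1, 12.1 and 11.9 FPKM against 7.55, 7.26 and 7.16 FPKM. The groups did not overlap, with a log2 fold change of 0.71 (SE 0.041 and adjusted p = 1.1e-07).

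MYO10, the motor at the tips of filopodia and invadopodia, was higher by less. It had 39.8, 40.3 and 39.3 FPKM against 29.7, 29.7 and 29.2 FPKM, a log2 fold change of 0.43 (adjusted p = 1.8e-07), close to the median of 0.49 over its 40 neighbours on chromosome 5. MYO19, a motor of mitochondria, had 49.1, 46.7 and 46.3 FPKM against 37.5, 39.9 and 39.4 FPKM, a log2 fold change of 0.28 (adjusted p = 2.9e-05), beside a neighbour median of 0.36. MYO18A, which tethers Golgi membranes to actin, had 9.34, 8.78 and 9.39 FPKM against 7.49, 7.20 and 7.78 FPKM, a log2 fold change of 0.29 (adjusted p = 3.4e-04). Its value is uncertain, since 13.1% of its windows of 100 bases recur in TIAF1, a gene that overlaps it.

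MYO7B and MYH15 were the members that fell most. MYO7B, a motor of the adhesion complex at the tips of intestinal microvilli, had 1.81, 2.01 and 1.87 FPKM in 231-BR cells, against 4.16, 4.70 and 4.86 FPKM in parental cells, a log2 fold change of -1.23 (SE 0.079 and adjusted p = 2.5e-07). With a pseudocount of 1 FPKM its log2 fold change was -0.94, under the fold condition. MYH15, a heavy chain placed by sequence among the muscle myosins, had 2.18, 2.11 and 1.92 FPKM against 5.77, 5.88 and 5.51 FPKM, a log2 fold change of -1.42 (SE 0.068 and adjusted p = 2.9e-08). Its 40 neighbours on chromosome 3 had a positive median of 0.38, and 39 of them stood above it. For MYO7B, 39 of 40 neighbours stood above it too, with a median of -0.37. The calmodulin-like light chain CALML4, a partner of MYO7B in microvilli, was at 1.90 ± 0.058 FPKM in 231-BR cells and 1.80 ± 0.19 FPKM in parental cells (adjusted p = 0.46).

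The remaining sarcomeric chains were low. MYH3, the embryonic skeletal heavy chain, was at 2.71 to 2.90 FPKM in 231-BR cells and 1.46 to 1.57 FPKM in parental cells, a log2 fold change of 0.84 (adjusted p = 2.9e-06), with 0.977% of its windows of 100 bases found in other muscle heavy chains. MYL5 was at 1.78 to 2.08 FPKM against 2.29 to 2.79 FPKM, a log2 fold change of -0.39 (adjusted p = 0.0034). The 13 members not tested, among them MYH7B, MYH13, MYL1, MYL2, MYL3 and MYL4, did not exceed 0.26 FPKM in any library. Of these 13, MYO3A, a motor of sensory hair cells, had 0.08 to 0.18 FPKM in 231-BR cells, against at most 0.01 FPKM in parental cells. The 7 skeletal and cardiac muscle markers measured, of 13 listed, summed to 0.27 to 0.60 FPKM in 231-BR libraries and 0.07 to 0.09 FPKM in MDA-MB-231 libraries. A large part of the 231-BR sums was TNNI3 alone, at 0.21, 0.15 and 0.42 FPKM, against 0 FPKM in each MDA-MB-231 library. None of the 7 was at 0 in every library.

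The partners of the myosins were taken from 6 lists, among them kinases, phosphatase subunits, actins and tropomyosins, calmodulins and chaperones, and vesicle adaptors. Of the 46 partners tested, 17 were higher and 18 lower at an adjusted p under 0.05, beside 44.4% and 32.9% of all genes tested (77.3% in either direction), with a median log2 fold change of -0.03. Counts of called partners in the single lists below are to be read against those shares. Past a log2 fold change of 1 in either direction, 3 were higher (10.9% of all genes tested) and 4 lower (4.34%).

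Among the 12 light chain kinases tested, 5 rose, 3 fell and 4 were not called, where 77.3% of all genes were called. CDC42BPA, a kinase of the Cdc42 branch that phosphorylates regulatory light chains at the leading edge, had 14.4 ± 0.23 FPKM in 231-BR cells, against 7.0 ± 0.20 FPKM in parental cells. Its log2 fold change of 1.03 (adjusted p = 7.4e-09) fell to 0.92 after quantile normalization. MYLK, the calcium-dependent light chain kinase, rose from 2.36 ± 0.11 to 4.66 ± 0.54 FPKM (log2 fold change 0.95, adjusted p = 3.3e-06), and CIT, the kinase of the cytokinetic ring, from 13.9 ± 0.13 to 23.2 ± 0.78 FPKM (0.74, adjusted p = 2.7e-08). The kinases ROCK1 and ROCK2 changed little, with log2 fold changes of -0.16 and 0.08 (adjusted p = 0.014 and 0.11). DAPK2 fell by 1.05 on the log2 scale but was at 0.29 ± 0.12 FPKM at most in the means. It reached the mean of 0.1 FPKM needed for the test only through its MDA-MB-231 libraries, and it is counted among the lower partners above.

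On the side of the phosphatase, the targeting subunit PPP1R12A rose from 26.5 ± 0.43 to 47.2 ± 1.14 FPKM (log2 fold change 0.83, adjusted p = 3.4e-09), while 4 of the 6 genes tested fell. One of these was PPP1R14B, an inhibitor of the phosphatase, with 292 ± 18.6 FPKM in 231-BR cells and 441 ± 14.0 FPKM in parental cells (log2 fold change -0.60, adjusted p = 5.8e-07). PPP1R14C, an inhibitor of the same family, had 0.34 ± 0.075 FPKM against 1.74 ± 0.15 FPKM (-2.07, adjusted p = 4.1e-07).

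The tracks and the shared light chains changed in both directions. ACTB was lower and ACTG1 higher, with log2 fold changes of -0.31 and 0.46 (adjusted p = 1.1e-06 and 1.5e-08), and of the tropomyosins TPM1 and TPM3 fell (-0.83 and -0.41) and TPM2 and TPM4 rose (0.39 and 0.40). ACTA2, smooth muscle actin, rose from 0.35 ± 0.078 to 2.35 ± 0.37 FPKM (2.45, adjusted p = 2.6e-07). CALM2, which encodes calmodulin, the light chain of the unconventional myosins, fell from 542 ± 3.43 to 270 ± 0.70 FPKM, a log2 fold change of -1.01 (adjusted p = 5.3e-11) that was -0.89 after quantile normalization, whereas CALM3 rose slightly (0.10, adjusted p = 0.0019).

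Among the 13 adaptors and Rabs tested, 4 rose, 4 fell and 5 were not called, where 77.3% of all genes were called. DAB2, which links MYO6 to clathrin-coated vesicles, had 19.4 ± 0.89 FPKM in 231-BR cells, against 7.14 ± 0.26 FPKM in parental cells (log2 fold change 1.43, adjusted p = 2.1e-09). OPTN, which links MYO6 to secretory vesicles and autophagosomes, had 9.0 ± 0.52 FPKM against 21.5 ± 0.66 FPKM (-1.25, adjusted p = 6.0e-09). MLPH, the adaptor of MYO5A on melanosomes, rose from 13.6 ± 0.41 to 24.8 ± 0.36 FPKM (0.86, adjusted p = 8.2e-09), whereas its Rab partner RAB27A was at 7.20 FPKM in the means of both lines (adjusted p = 0.99).

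**Figure D5:**
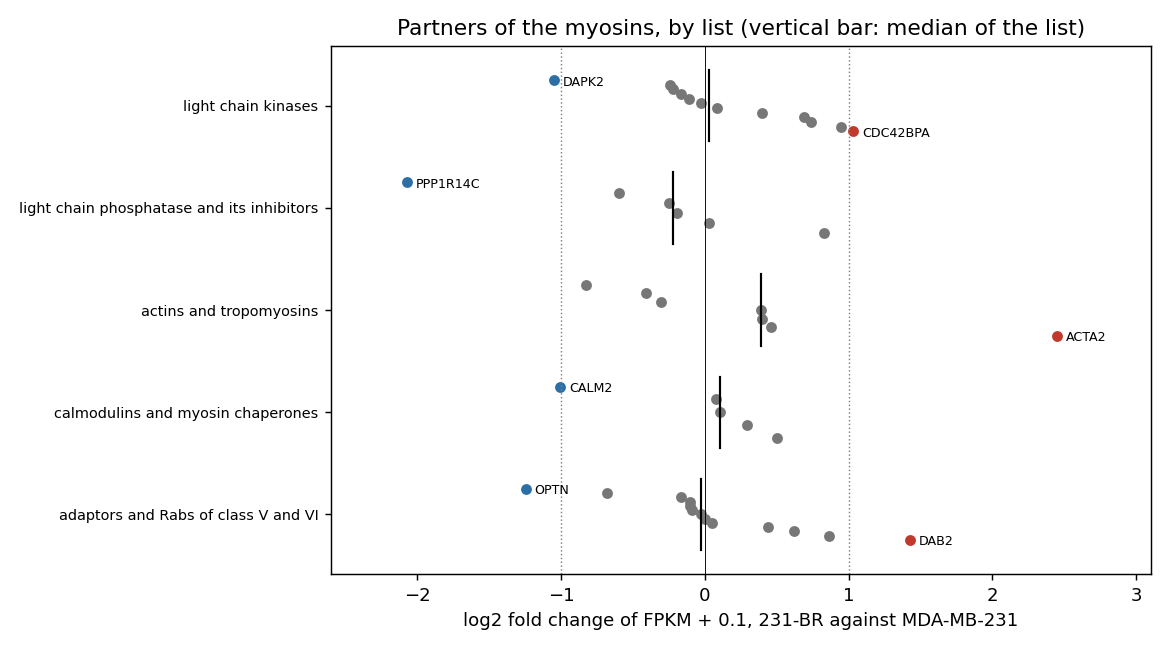
Log2 fold change of 231-BR against MDA-MB-231 for the partner genes tested in each of 5 lists, with 1 point per gene and a vertical bar at the median of the list (red, higher and blue, lower by over 1 with an adjusted p under 0.05). The lists scatter on both sides of 0, and ACTA2 (2.45) and PPP1R14C (-2.07) lie farthest out.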

How the data were processed

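The authors filtered the reads with SOAPnuke, aligned them with HISAT2 2.0.4 and Bowtie2 2.2.5 (GRCh38.p12 in the submitters' processing notes) and deposited FPKM with 2 decimals. The program that computed the FPKM and the annotation release are not given in the sources used here. The study's own test needs counts, so limma 3.58.1 in R 4.3.3 (lmFit, and eBayes with its trend option) compared log2(FPKM + 0.1) between the lines over the 13465 genes with a mean of at least 0.1 FPKM, with Benjamini-Hochberg adjustment over them. The script was tested on simulated data. Shares and ratios were tested with exact permutation. Errors after ± are SDs over 3 libraries.

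The members and lists were chosen with earlier results of these data known. Values in every library are given for members past the criteria or the fold condition at 1 FPKM in either line, for the non-muscle II chains, for class I members at 1 FPKM and for other members at 5 FPKM in either line. Neighbours were taken among genes with a mean of at least 1 FPKM. Promoters matched 21 of the 24 members searched. Replicate numbers were not used as a block. Pseudocounts, filters, scalings, the block, the trend, criteria and left-out libraries were varied. Some genes are not reported here, though counts and sums include them.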

Additional observations from a re-analysis of the deposited data

How the results depend on the processing

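The log2 fold changes of the 24 members with 1 FPKM in either line were recomputed under each other setting, and 328 values kept their direction and their side of the threshold, 1 passed it and 6 turned. Those 6 belong to members without a call: MYL6B at -0.065 after median-of-ratios scaling, -0.041 after quantile normalization and -0.0098, -0.0026 and -0.053 without 231-BR replicate 2, 231-BR replicate 3 or MDA-MB-231 replicate 1 (range -0.053 to 0.065 with a library left out), and MYO9A at 0.029 without 231-BR replicate 3 (range -0.11 to 0.029). MYO9A was lower after quantile normalization (-0.33, adjusted p = 0.0055 from limma). With the log2 fold change over 1.5 as the condition, 0 members were past the criteria as lower genes (MYH15 and MYO7B both fell short), with a pseudocount of 1 it was 1 (MYH15), and a mean of 1 FPKM in either line gave 3 higher genes, with MYO5B and MYO5C. The count past a log2 fold change of 1, 6 in the fit as reported, was 4 with a pseudocount of 1 and among genes with a mean of 1 FPKM, and 7 at most. The replicate block gave 1 higher and 2 lower genes, as without it, and changed no call. Over the genes with a mean of 1 FPKM, same-numbered libraries did not deviate together (correlations from -0.11 to 0.087). These correlations cannot show whether same-numbered libraries shared handling, which is not known. Without each library in turn, the counts stayed at 1 and 2. The difference in the share of MYL12A ran from -0.85 to 0.10 percentage points with a library left out, and was 0.096 without 231-BR replicate 2. The median over all genes moved from 0.08 to -0.06 after quantile normalization. Some members at low levels moved by more, such as MYH3 from 0.84 to 0.50 and MYL5 from -0.39 to -0.73. Members near 0 thus have no firm direction. Depth is unknown.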
